A study of Mus musculus with 18 samples.

Results

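DNA methylation was examined at 10 genes of antigen presentation in splenic CD11b+ and CD4+ cells of wild-type (WT) and Dnmt3a R878H/+ mice. The genes were picked by name, for their known roles in class II and class I presentation. A listed region was assigned to a gene where it overlapped the gene body extended by 5 kb to each side, in mm10 coordinates and GENCODE release 21 gene models. The 10 genes held 49 of the 411770 regions listed for CD11b+ cells and 91 of the 553467 listed for CD4+ cells, and each of the 10 had at least 2 regions in both tables. Methylation was measured by whole-genome bisulfite sequencing (WGBS), in which unmethylated cytosines are converted and methylated ones are not.

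The study asked whether blood cell clones with mutant DNMT3A contribute to inflammatory bone loss. A part of it, used here, asked how the Dnmt3a R878H mutation alters the methylome of mature leukocytes. The mutation is the mouse form of a hotspot mutation of human clonal hematopoiesis, in the gene of a de novo DNA methyltransferase. The WT groups are labelled Dnmt3a+/+ and the mutant groups Dnmt3a R878H/+. Spleen cells were enriched on magnetic columns for CD11b, a myeloid surface marker, or for CD4, the helper T cell marker. The mice were on a C57BL/6 background, and the methods describe adults of both sexes. In the mutants, a heterozygous conditional R878H allele was switched on by Vav1-iCre, a recombinase expressed throughout the hematopoietic lineage, so the mutation was present in stem cells and in all of their progeny. For the transplant controls, the methods use the name Dnmt3a+/+ for mice with the recombinase and no R878H allele. They use it as well for mice with the conditional R878H allele and no recombinase. Which of these the sequenced WT mice were, and so whether they carried the recombinase or the unswitched allele, is not given in the sources used here. Each group has 4 replicate numbers in the labels, and the 6 entries of Dnmt3a R878H/+ CD11b+ cells fall on 4 replicate numbers. The titles also hold an S number of unstated meaning. It lay between 110 and 120 for 4 of 4 WT and 4 of 6 mutant CD11b+ entries and for 3 of 4 WT CD4+ entries, and higher for the rest, which hold 4 of 4 mutant CD4+ entries. Its part in the differences between genotypes or cell types was not tested.

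The tables hold 1 mean per genotype and region, in percent, and neither the value of a mouse nor a read depth. No value below therefore has an error, no difference could be tested across mice, and the depth behind each level is unknown. The tables do not name their groups, and directions between genotypes rest on reading the column of mostly higher levels as WT, the genotype that the study shows as the more methylated. The overall direction is thus taken from the study and is not a result of these values. A lower level in a sorted population can be a lower level in every cell or a different mixture of cells, and these cannot be told apart. The genes H2-Aa, H2-Ab1, H2-Eb1, H2-K1 and H2-D1 belong to families of related genes with similar stretches. Short reads may therefore not always be placed on the right gene, and the levels of these genes are uncertain to that extent.

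Class II molecules display peptides from endosomes to CD4+ T cells and are carried by professional antigen-presenting cells, among them dendritic cells, B cells and a part of the macrophages and monocytes. Their genes are switched on by CIITA, a coactivator that joins factors already bound to the class II promoters. Class I molecules display peptides from the cytosol to CD8+ T cells and are carried by nearly all nucleated cells, with T cells and myeloid cells among them. CIITA has alternative promoters that are used in different cell types, and mouse T cells are known for lacking class II on their surface.

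The 5 class II genes were H2-Aa and H2-Ab1, which encode the alpha and beta chains of the I-A molecule, H2-Eb1, which encodes the beta chain of I-E, Cd74, which encodes the invariant chain that occupies the groove until the endosome, and Ciita. The 5 class I genes were H2-K1 and H2-D1, which encode heavy chains, B2m, which encodes the light chain beta-2-microglobulin, Tap1, which encodes a subunit of the peptide transporter of the endoplasmic reticulum, and Psmb8, which encodes a catalytic subunit of the immunoproteasome. Of these, 7 lie on chromosome 17, in the major histocompatibility complex (MHC), while Cd74, Ciita and B2m lie on other chromosomes. Tap1 (chr17:34187553-34197225) and Psmb8 (chr17:34197721-34201454) are neighbours whose windows overlap, so 4 regions of CD11b+ cells and 6 of CD4+ cells were counted for both genes. Psmb9 and Tap2 also reach into these windows, H2-Ob into that of H2-Ab1, Tcof1 into that of Cd74, Dexi into that of Ciita and Patl2 into that of B2m.

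The sequences that the results turn on are given 5′ to 3′ on the strand of the gene, in mm10, with the CG dinucleotides in capitals. The first is the start of intron 1 of H2-Aa, from the region near a transcription start with the largest loss in CD4+ cells. The next 3 lie in exon 2 of H2-Ab1, H2-Eb1 and H2-D1 and had a higher mean in mutant CD11b+ cells, the last of them being also the largest difference near a start in CD11b+ cells, while H2-Ab1 and H2-Eb1 were chosen after their values were seen. The fifth, in Psmb8, had the largest difference between the cell types of the genes in the MHC.
H2-Aa, intron 1, chr17:34287382-34287681, minus strand: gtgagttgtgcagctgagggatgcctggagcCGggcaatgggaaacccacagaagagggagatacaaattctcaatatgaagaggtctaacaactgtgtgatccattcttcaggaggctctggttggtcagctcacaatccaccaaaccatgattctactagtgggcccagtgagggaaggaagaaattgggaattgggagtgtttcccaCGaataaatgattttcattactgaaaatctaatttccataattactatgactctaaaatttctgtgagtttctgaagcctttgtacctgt
H2-Ab1, exon 2, chr17:34264769-34264978, plus strand: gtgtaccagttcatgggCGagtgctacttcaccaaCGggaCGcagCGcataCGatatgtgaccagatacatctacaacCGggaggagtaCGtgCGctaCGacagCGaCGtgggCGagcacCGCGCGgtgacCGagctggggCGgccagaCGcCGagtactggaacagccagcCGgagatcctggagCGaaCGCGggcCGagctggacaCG
H2-Eb1, exon 2, chr17:34309723-34309796, plus strand: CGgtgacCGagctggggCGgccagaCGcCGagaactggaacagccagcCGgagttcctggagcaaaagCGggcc
H2-D1, exon 2, chr17:35263438-35263600, plus strand: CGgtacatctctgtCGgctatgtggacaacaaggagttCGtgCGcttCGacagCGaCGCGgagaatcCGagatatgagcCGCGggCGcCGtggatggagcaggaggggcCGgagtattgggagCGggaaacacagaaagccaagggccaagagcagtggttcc
Psmb8, intron 4 and exon 5, chr17:34200471-34200770, plus strand: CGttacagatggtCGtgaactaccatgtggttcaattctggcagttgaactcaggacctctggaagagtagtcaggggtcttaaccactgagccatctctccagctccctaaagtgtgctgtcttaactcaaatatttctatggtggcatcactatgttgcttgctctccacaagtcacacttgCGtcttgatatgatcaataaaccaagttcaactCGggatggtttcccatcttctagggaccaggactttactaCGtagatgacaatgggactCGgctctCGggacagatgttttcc
The intron of H2-Aa held 2 CG dinucleotides in 300 bases and the exon of H2-Ab1 25 in 210. The sequences from H2-Ab1 and H2-Eb1 share an unbroken run of 32 bases with 5 CG dinucleotides, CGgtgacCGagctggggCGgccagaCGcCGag, whereas the longest runs that H2-D1 shares with them have 11 and 8 bases.

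None of the 10 genes had a differentially methylated region (DMR) by the criteria of the study, which are more than 10 CpGs, a difference between the means above 20 percentage points and a q-value of the region caller below 0.05. This was so for both directions and both cell types. More than 10 CpGs were held by 14 of 49 regions in CD11b+ cells (28.6%, against 41.8% of all listed regions). In CD4+ cells 44 of 91 regions held as many (48.4%, against 44.7%). The remaining regions could not be called, among them all regions of H2-Aa, H2-K1 and B2m in CD11b+ cells. Among all regions of CD11b+ cells, 0.576% were hypomethylated and 0.0126% hypermethylated DMRs, and the shares were 0.665% and 0.000542% for CD4+ cells. Read against these shares, 0 of 49 and 0 of 91 do not set the 10 genes apart. Over protein-coding genes with a listed region, 8.07% had a hypomethylated DMR within 5 kb by the CD11b+ table, and 10.9% by the CD4+ table. Among the regions of the 10 genes, 4 in CD11b+ and 5 in CD4+ cells passed the criteria on CpGs and on the difference, and their q-values were all above 0.05. Of all regions that passed those criteria, 17.5% in CD11b+ and 21.6% in CD4+ cells also passed on the q-value. The lowest q-values were 0.32, upstream of Tap1 in CD4+ cells, and 0.65, at exon 2 of B2m in CD4+ cells, and the others were 1. The CpGs of the tables are cytosines of both strands, so that 10 of them can come from 5 CG dinucleotides.

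Lower means in the mutant prevailed at the 10 genes as over the genome. Dnmt3a R878H/+ cells had the lower mean in 42 of 49 regions in CD11b+ cells (85.7%, against 93.4% of all listed regions) and in 89 of 91 in CD4+ cells (97.8%, against 95.5%). The median difference, mutant minus WT, was −7.53 percentage points in CD11b+ cells, against −6.55 over all regions. In CD4+ cells it was −9.90, against −6.85 over all regions. The mutant was lower by over 20 points in 5 regions of CD11b+ cells (10.2%, against 7.00% of all) and in 11 of CD4+ cells (12.1%, against 6.23%).

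The regions of these genes started from lower levels than most. The median WT level was 69.0% in CD11b+ and 81.3% in CD4+ cells, against 88.9% and 89.9% over all listed regions. The regions were therefore also set against all regions in bins of the WT level, which were chosen after the data were seen. In regions with a WT level from 20% to below 80%, the median difference was −15.0 points in CD11b+ cells (21 regions, against −13.4 for all) and −14.4 in CD4+ cells (35 regions, against −12.9). In those bins the mutant was lower by over 20 points in 23.8% of the regions in CD11b+ cells, as over all regions, and in 22.9% in CD4+ cells, against 22.2%. From 80% upwards the median differences were −5.97 and −7.81, against −5.65 and −6.11. There the mutant was lower by over 20 points in none of 18 regions in CD11b+ cells, against 1.64% of all, and in 3 of 46 in CD4+ cells (6.52%), against 2.15%. Below 20%, with 10 regions in each cell type, the median differences were 0.362 in CD11b+ and −4.70 in CD4+ cells, against −1.80 and −2.75, and no region could fall by over 20 points.

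**Figure D1:**
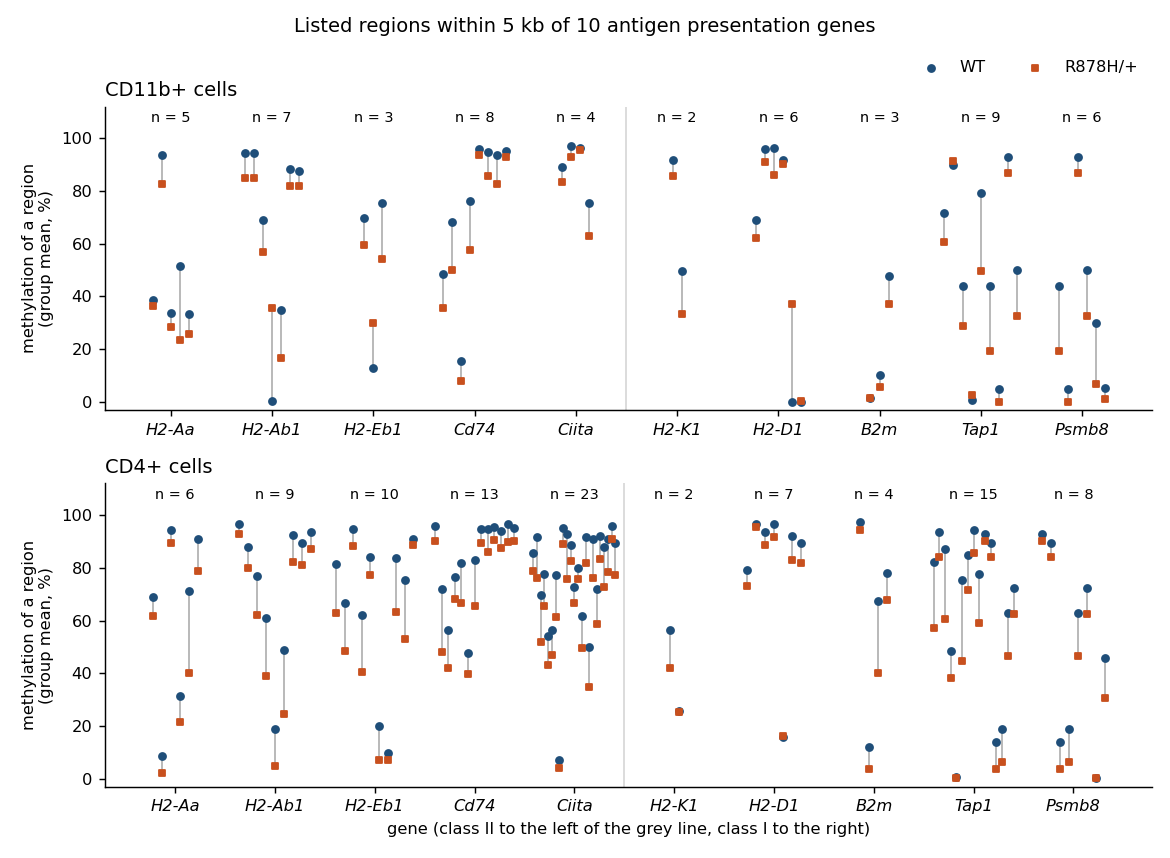
Methylation of every listed region (group mean in percent, y axis) by gene (x axis) in CD11b+ cells (top) and CD4+ cells (bottom); blue circles are WT, orange squares Dnmt3a R878H/+, a grey line joins the means of a region, regions of a gene run from 5′ to 3′ and n is their number. Most orange squares lie below their blue circles, and the long lines that lead upwards from the blue circles are 3 regions of CD11b+ cells in H2-Ab1, H2-Eb1 and H2-D1.

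**Figure D2:**
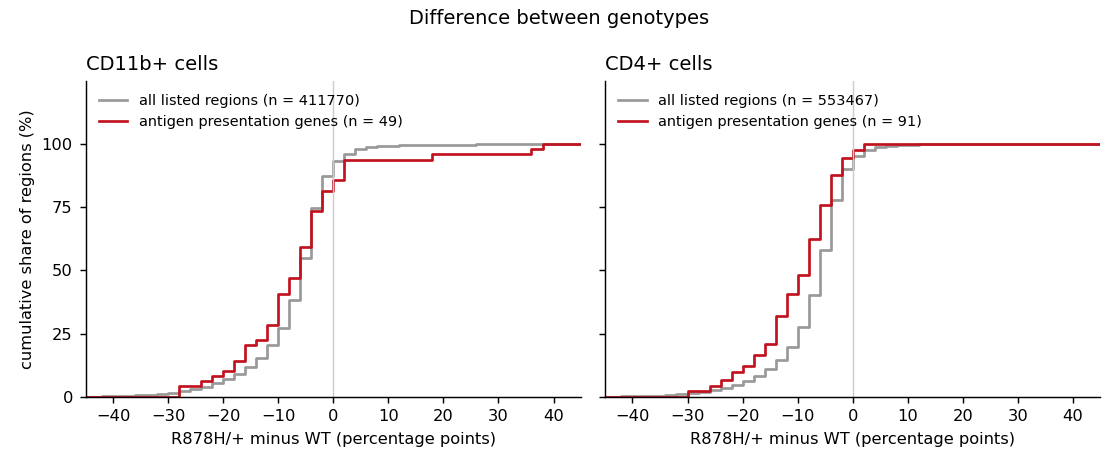
Cumulative share of regions (y axis, percent) by the difference between genotypes (x axis, mutant minus WT, percentage points, in steps of 2) in CD11b+ cells (left) and CD4+ cells (right); red is the 10 genes and grey all listed regions. In CD4+ cells the red curve lies to the left of the grey one, with medians of −9.90 and −6.85, and in CD11b+ cells it keeps a tail above 0.

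The median difference between genotypes was larger in size over class II than over class I regions in both cell types. Their WT medians differed as well, and neither gap was tested. In CD11b+ cells the median was −9.15 points over 27 class II regions and −6.29 over 22 class I regions, and in CD4+ cells it was −10.1 over 61 and −9.29 over 30. The WT medians of class II and class I regions were 75.6% and 48.7% for CD11b+ cells, and for CD4+ cells 82.9% and 77.9%. By place, regions within 1 kb of a coding transcription start had the lowest WT medians, 33.6% over 11 regions in CD11b+ cells and 56.4% over 17 in CD4+ cells, and the 3′ flanks the highest, 87.6% over 13 and 90.2% over 16. Regions over exons had median differences of −10.7 and −12.4 points.

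H2-Aa (chr17:34282744-34287823, minus strand) showed the largest loss of the class II genes in both cell types, in the same place. The region over the end of exon 1 and the start of intron 1, from which the sequence above was taken, had 51.7% methylation in WT and 23.5% in mutant CD11b+ cells (chr17:34287357-34287762), a difference of −28.2 points. In CD4+ cells (chr17:34287356-34287731) the levels were 71.3% and 40.3%, a difference of −31.0. The order of the 4 groups there was WT CD4+, WT CD11b+, mutant CD4+ and mutant CD11b+, so that mutant CD4+ cells lay below WT CD11b+ cells. Each mean rests on 10 cytosines, which is not above 10, so neither region could be called.

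Upstream of the H2-Aa start the levels were lower and the genotypes closer. The bases from 372 to 36 before the start had 33.6% in WT and 28.6% in mutant CD11b+ cells, and an overlapping CD4+ region (chr17:34287759-34288366) had 31.5% and 21.4%. A further region of intron 1 (chr17:34286542-34287107) was listed for CD11b+ cells with 33.2% and 25.7%. The 250 bases before the start, credited to RefSeq (GRCm38.p6), are shown because both tables have a region there.
H2-Aa, chr17:34287824-34288073, minus strand: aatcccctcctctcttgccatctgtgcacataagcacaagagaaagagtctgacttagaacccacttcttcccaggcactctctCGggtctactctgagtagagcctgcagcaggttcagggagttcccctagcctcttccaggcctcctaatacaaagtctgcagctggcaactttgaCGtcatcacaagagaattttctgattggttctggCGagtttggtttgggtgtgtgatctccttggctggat
This stretch held 3 CG dinucleotides. Class II promoters carry conserved boxes for the factors that CIITA joins, among them a Y box that NF-Y binds. The letters CTGATTGG, which fit that box, start 51 bases before the start of H2-Aa.

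RefSeq promoters, from 250 bases before to 50 after a start, were at hand for 7 of the 10 genes. H2-Ab1, Cd74 and Ciita had no entry. On either strand, CTGATTGG was found for 5 of the 7 (H2-Aa, H2-Eb1, H2-K1, H2-D1 and Tap1) and in 4.10% of all 32851 promoters of this length. It contains ATTGG, the reverse complement of a CCAAT box, which was found for 6 of the 7 and in 37.4% of all. For H2-Eb1 and H2-D1, CTGATTGG lay 62 and 53 bases before the RefSeq start, on the strand of the gene for H2-Eb1 and on the other for H2-D1. The H2-D1 entry (chr17:35262844-35263143) lies wholly downstream of the start used elsewhere here, at 35262730, so its match is not before that start. For Tap1, CTGATTGG lay 222 bases before the start. For H2-K1, with 2 entries of different starts, it lay 6 bases before one and 8 after the other. The matches of Tap1 and H2-K1 were all on the other strand. In all, 8 strings of letters were searched on these promoters, and CTGATTGG was singled out after its matches were seen. The others were 4 forms of the X box, the neighbouring box of class II promoters, and 2 forms of the interferon response element. Of the X box forms 3 were found for H2-Eb1 alone, and in 0.298%, 0.895% and 2.51% of all promoters, and the longest form was found for none of the 7 and in 0.00913% of all. The looser form of the interferon response element was found for B2m alone and in 3.44% of all, and the stricter form for none of the 7 and in 1.10%. These matches describe letters in a window and not binding.

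H2-Ab1 (chr17:34257689-34269419) has its coding transcript starts from position 34263209 on. The intron between exons 2 and 3 was listed in both tables, with 34.9% in WT and 16.8% in mutant CD11b+ cells (chr17:34265291-34265716) and 49.0% and 24.7% in CD4+ cells (chr17:34265303-34265716). The differences of −18.1 and −24.3 points were the largest losses of this gene. Within 1 kb of the start, CD4+ cells had a region with 19.0% in WT and 4.78% in the mutant (chr17:34263841-34264221), and CD11b+ cells had none listed. Over the last exons the genotypes were close, with 88.2% and 81.8% in CD11b+ cells (chr17:34267975-34269396) and 89.4% and 81.1% in CD4+ cells (chr17:34268270-34269396).

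H2-Eb1 (chr17:34305867-34316674) gave nearly equal values in both cell types at the end of exon 3 and the start of the next intron. The levels were 75.4% in WT and 54.1% in mutant CD11b+ cells (chr17:34314430-34314946), a difference of −21.3 points, and 75.3% and 53.1% in CD4+ cells (chr17:34314445-34314840), a difference of −22.2. These were its largest losses. In the first intron, 212 to 944 bases after the start, CD4+ cells had 62.0% and 40.4% (chr17:34306079-34306811), a difference of −21.7. No region of CD11b+ cells was listed within 1 kb of this start.

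Cd74 (chr18:60803848-60812652) had lower means in the mutant in 8 of 8 regions of CD11b+ and 13 of 13 of CD4+ cells. The region over its start had 48.7% in WT and 35.6% in mutant CD11b+ cells (chr18:60803077-60803904), and 71.9% and 48.0% in CD4+ cells (chr18:60803077-60804221). The difference of −23.8 points was the largest loss of Cd74 in CD4+ cells, and mutant CD4+ cells came to the level of WT CD11b+ cells there. In CD11b+ cells the largest difference was −18.7, from exon 3 to the start of exon 4 (chr18:60808159-60809039), from 76.2% in WT to 57.5% in the mutant. In an intron, 3511 to 4001 bases after the first start, CD11b+ cells had a low region of 15.5% and 7.95% (chr18:60807359-60807849), while a longer CD4+ region over the same stretch (chr18:60806907-60807898) had 47.8% and 39.6%. In the 3′ flank, WT levels were at least 93.8% in both cell types.

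Ciita (chr16:10480059-10528418) was covered unevenly by the tables. CD4+ cells had 23 listed regions that held 31.7% of the 609 CG dinucleotides of its window, and CD11b+ cells had 4 that held 6.24%, none of them within 1 kb of a start. Over protein-coding genes with a region, the median number of listed regions was 10.0 in CD4+ and 8.00 in CD11b+ cells. No region of Ciita matched between the tables, so its cell types could not be compared. In CD4+ cells all 23 regions had the lower mean in the mutant, with a median difference of −12.2 points. None had a difference above 20 points. The largest difference was −18.1, in an intron, 2167 to 2699 bases after the first start (chr16:10482226-10482758), from 69.8% to 51.7%.

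The alternative starts of Ciita had very different levels in CD4+ cells. The region over the first pair of starts had 91.8% in WT and 76.0% in the mutant (chr16:10479711-10480641). The region over the start at 10488279 had 56.3% and 47.0% (chr16:10487872-10488414). The region over the last pair of starts had 7.28% and 4.00% (chr16:10489632-10489945), and 822 bases after these starts the level was back at 95.2% in WT and 88.9% in the mutant (chr16:10490605-10490813). The 4 regions listed for CD11b+ cells lay in an intron and at the 3′ end, with WT levels from 75.6% to 97.1%. The largest difference there was −12.7 points, beyond the 3′ end and inside Dexi (chr16:10532564-10533447).

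**Figure D3:**
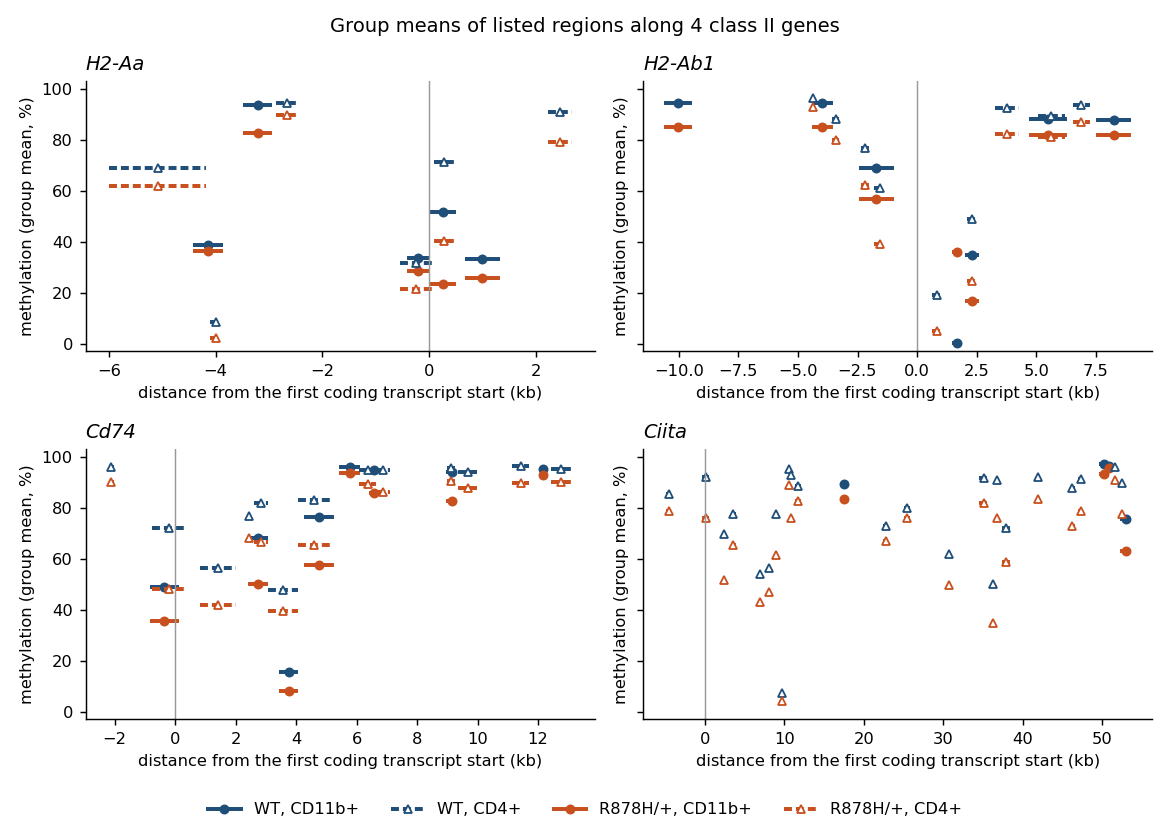
Methylation (group mean in percent, y axis) of the listed regions along H2-Aa, H2-Ab1, Cd74 and Ciita by distance from the first coding transcript start (x axis, kb, positive in the direction of transcription); bars span a region, blue is WT, orange Dnmt3a R878H/+, filled circles are CD11b+ cells and open triangles CD4+ cells. The blue triangle at Ciita near 10 kb is the last pair of starts, at 7.28%, and in H2-Ab1 an orange circle at 35.8% stands above a blue one at 0.435%.

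**Figure D4:**
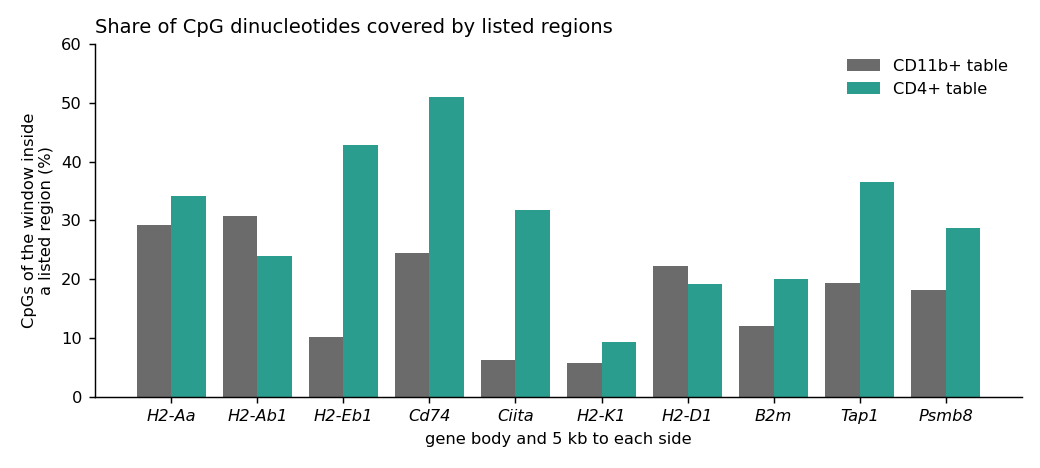
Share of the CG dinucleotides in each gene's window (y axis, percent) that lie inside a region listed for CD11b+ cells (grey bars) or CD4+ cells (green bars). Ciita differs most in ratio, with 6.24% and 31.7%, and H2-K1 is low in both, with 5.75% and 9.29%.

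H2-K1 (chr17:33996017-34000347, minus strand) had 2 listed regions in each table and none within 1 kb of its starts. In CD11b+ cells the largest difference was −16.5 points in the 3′ flank (chr17:33991659-33991853), from 49.7% in WT to 33.2% in the mutant. In CD4+ cells it was −14.4 in the 5′ flank (chr17:34003633-34004727), from 56.5% to 42.1%. No listed region of either cell type overlapped the body of this gene, so its level is not known here.

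H2-D1 (chr17:35262730-35267499) had small losses. The largest was −10.1 points in CD11b+ cells, 753 to 1017 bases before the start (chr17:35261713-35261977), from 96.3% to 86.2%, and −9.10 in CD4+ cells in the 3′ flank (chr17:35268091-35268787), from 92.2% to 83.1%. Over the start of the GENCODE model, CD4+ cells had 16.0% in WT and 16.4% in the mutant (chr17:35262365-35262835), and CD11b+ cells had no listed region. The intron after exon 2 was at 0% in WT and 0.50% in mutant CD11b+ cells (chr17:35263743-35263835).

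B2m (chr2:122147686-122153083) was unmethylated before its start and partly methylated over exon 2. The bases 418 to 20 before the start had 1.35% in WT and 1.57% in mutant CD11b+ cells (chr2:122147268-122147666). The first intron had 10.3% and 5.58% in CD11b+ cells (chr2:122149452-122150061) and 12.1% and 3.83% in CD4+ cells (chr2:122149568-122150333). Over exon 2 and its surroundings, CD4+ cells had 67.4% in WT and 40.2% in the mutant (chr2:122150700-122151184), a difference of −27.2 points over 20 cytosines with a q-value of 0.65. An overlapping region of CD11b+ cells at the start of the exon (chr2:122150518-122150910) had 47.6% and 37.0%, a difference of −10.7. These were the largest differences of B2m in each cell type.

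Tap1 and Psmb9 start close to each other on opposite strands, and the stretch before the Tap1 start was unmethylated in all 4 groups. Its levels were 0.70% in WT and 2.65% in mutant CD11b+ cells (chr17:34186785-34187303), and 0.602% and 0.50% in CD4+ cells (chr17:34186786-34187328). The body of Tap1 held the largest losses of the class I genes. At exon 5, CD11b+ cells had 79.1% in WT and 49.8% in the mutant (chr17:34191522-34191905), a difference of −29.4 points. A longer CD4+ region at the same exon had 77.6% and 59.0% (chr17:34191137-34192157). In CD4+ cells the largest difference was −30.6, over exons 2 and 3 (chr17:34189255-34189512), from 75.3% to 44.7%. From 2168 to 1719 bases before the Tap1 start, inside Psmb9, CD4+ cells had 87.0% in WT and 60.5% in the mutant (chr17:34185385-34185834), with the lowest q-value of the set, 0.32.

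Psmb8 had its largest loss before its start, at the 3′ end of Tap1. CD11b+ cells had 43.8% in WT and 19.3% in the mutant there (chr17:34196885-34197248), a difference of −24.4 points over 17 cytosines. In CD4+ cells the neighbouring regions were lower, at 13.9% and 3.89% (chr17:34196688-34196975) and at 18.8% and 6.50% (chr17:34197020-34197547). The largest difference of Psmb8 in CD4+ cells was −16.2, over exons 3 and 4 (chr17:34199597-34200154), from 63.0% to 46.7%. Beyond its 3′ end, where Tap2 begins, CD11b+ cells had 29.9% in WT and 6.80% in the mutant (chr17:34203688-34204244).

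Higher means in the mutant were found in both cell types, and those above 15 points in CD11b+ cells. In CD4+ cells 2 of 91 regions had the higher mean in the mutant, by 0.400 points at the start of H2-D1 and by 0.135 beyond Psmb8. In CD11b+ cells 7 of 49 regions had the higher mean in the mutant, and 3 of them by over 15 points, in exon 2 of H2-Ab1, H2-Eb1 and H2-D1. Exon 2 encodes the first outer domain of these chains, which forms part of the peptide-binding groove and is the most variable part of the molecules between mouse strains. H2-Ab1 had 0.435% in WT and 35.8% in mutant CD11b+ cells over 23 cytosines (chr17:34264769-34264978), a difference of 35.3 points. H2-D1 had 0% and 37.0% over 10 cytosines (chr17:35263438-35263600). H2-Eb1 had 13.0% and 30% over 12 cytosines (chr17:34309723-34309796), a difference of 17 points.

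None of these 3 was a DMR, as each had a q-value of 1. Of all regions listed for CD11b+ cells, 0.334% were higher in the mutant by over 15 points, and 0.209% by over 20. The threshold of 15 points was not planned in advance and is not one of the study's criteria. By over 20 points, of these 3 only the regions of H2-Ab1 and H2-D1 were higher in the mutant. Among CD11b+ regions with a WT level below 20% the share above 15 points was 8.71%, or 1114 of 12784, and the 10 genes had 3 of 10. In CD4+ cells it was 0.294%, and the 10 genes had none. Over all CD4+ regions 0.0423% were higher in the mutant by over 15 points and 0.00976% by over 20, and the 10 genes had none of either. CD4+ cells had no listed region in exon 2 of H2-Ab1 or H2-D1. In exon 2 of H2-Eb1 they had 20.2% in WT and 7.07% in the mutant (chr17:34309644-34309706), and 9.90% and 7.25% (chr17:34309749-34309941), so the mutant was not higher there. The exon of H2-D1 could give up to 32 cytosines and the mean rests on 10, and that of H2-Ab1 could give 50 and the mean rests on 23. The other 4 regions of CD11b+ cells with a higher mean in the mutant differed by 0.225 to 1.95 points.

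Between the cell types, regions were compared where a region of each table covered at least 50% of the other. This left 17 regions of 8 of the 10 genes, Tap1 and Psmb8 sharing 1, and none of Ciita or H2-K1. The median difference, CD4+ minus CD11b+ cells, was 1.70 points in WT, against 1.23 over all 136883 matched regions. In the mutant it was 2.65, against 1.08. CD4+ cells had the higher WT mean in 12 of 17 regions (70.6%, against 62.5% of all).

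The class II genes had 9 matched regions, and 7 of them had the higher WT level in CD4+ cells. The difference was over 10 points in 4 of the 9, at the starts of Cd74 (23.1) and H2-Aa (19.6), in the second intron of H2-Ab1 (14.2) and in an intron of Cd74 (13.7). Over all matched regions 13.4% had such a difference. All matched regions had median WT levels of 85.9% in CD11b+ and 87.6% in CD4+ cells. The 4 regions had WT levels from 34.9% to 68.1% in CD11b+ cells, and no comparison at like levels was made. At the Cd74 start the CD4+ region was also longer, with 19 cytosines against 10. In the mutant the difference was over 10 points in 3 of the 9, at the H2-Aa start (16.8), in that intron of Cd74 (16.3) and at the Cd74 start (12.4), against 15.2% of all matched regions. The other 5 class II matches differed by less than 10 points in WT. The bases around exon 3 of Cd74 differed by 6.65 points and its 3′ flank by 1.65. The bases before the H2-Aa start differed by −2.17 points, the end of exon 3 of H2-Eb1 by −0.0680 and the last exons of H2-Ab1 by 1.2.

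The class I genes had 8 matched regions with a median WT difference of 1.26 points. Before the Tap1 start the difference was −0.0977, and in the first intron of B2m it was 1.70. The region over exon 5 of Psmb8, whose sequence is given above, was the exception, with 92.9% in WT CD11b+ cells and 72.5% in WT CD4+ cells, a difference of −20.4. In the mutant it was 86.8% and 62.5%, a difference of −24.2. The region of CD4+ cells was longer (chr17:34200220-34200780, against chr17:34200471-34200780 in CD11b+ cells). Its mean therefore also holds bases outside the CD11b+ region and the printed sequence, and their part in the difference was not tested. Over all matched regions 1.26% were lower in WT CD4+ cells by over 20 points and 4.19% were higher by as much. In the 5′ flanks of Tap1 (chr17:34182330-34182566) and H2-D1 (chr17:35259550-35259870), CD4+ cells were higher by 10.8 and 10.4 points in WT.

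**Figure D5:**
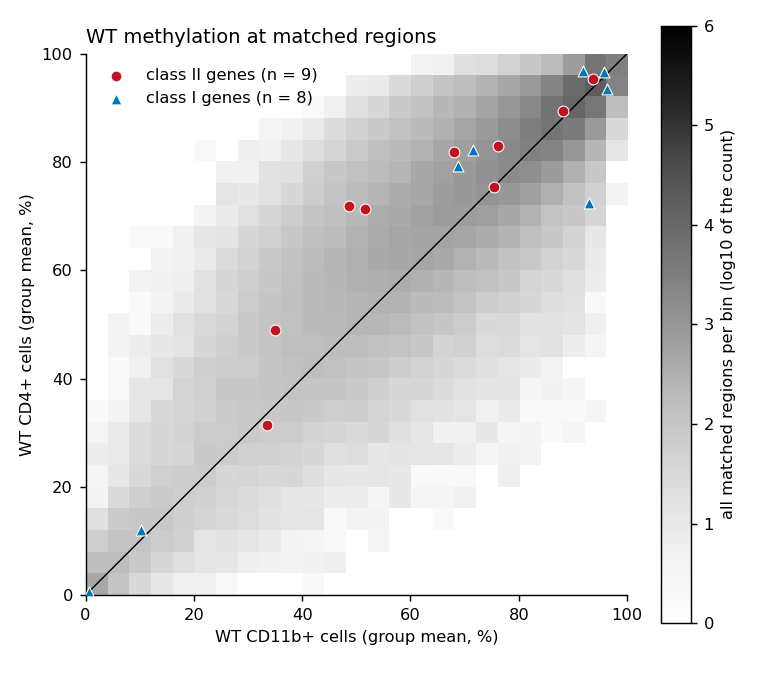
WT methylation of matched regions in CD11b+ cells (x axis, group mean in percent) and CD4+ cells (y axis); red circles are class II genes, blue triangles class I genes, grey shades the number of all 136883 matched regions per bin on a log10 scale, and the line marks equal levels. The red circles well above the line are the starts of Cd74 and H2-Aa and introns of H2-Ab1 and Cd74, and the blue triangle below it is exon 5 of Psmb8.

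The labels of the cells were checked against marker genes by the same matched regions in WT. At 10 genes of myeloid cells, the median difference, CD4+ minus CD11b+, was 4.40 points over 46 regions, with 8 regions higher in CD4+ cells by over 20 points and 1 lower. At T cell genes it was −2.48 over 45 regions of 9 genes, with 13 lower in CD4+ cells by over 20 points and none higher. The lower levels in CD4+ cells were large at Cd5 (mean 64.2%, against 89.8% in CD11b+ cells) and Bcl11b (44.6%, against 65.5%). The mean at Cd4 was 82.4%, against 88.6%, although 3 of its 4 regions were higher in CD4+ cells. By the median of each gene, 5 of the 9 T cell genes (Cd4, Cd3e, Cd3g, Cd28 and Lck) were higher in CD4+ cells, and 3 of the 10 myeloid genes (Itgam, Lyz2 and Tyrobp) were lower there, against the labels. At Itgam, the gene of CD11b itself, the median difference was −1.66. B cell genes had a median difference of 2.64 over 22 regions and dendritic cell genes 1.85 over 17. Both of these cell types carry class II, and single genes of them were lower in CD11b+ cells, with a mean of 41.6% against 66.4% at Cd79a and 49.5% against 74.5% at Itgax. The part of B cells or dendritic cells in the class II values was not tested.

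Further genes of the pathway were taken from general knowledge, 42 in all, of which 41 were found in the gene models. In CD11b+ cells 5 of them had a hypomethylated DMR and none a hypermethylated one, from 4 DMRs, and in CD4+ cells 6 had one and none a hypermethylated one. These were 12.2% and 15.0% of the further genes with a listed region, against 8.07% and 10.9% of all protein-coding genes with one. The median differences over their 421 and 546 regions were −8.50 and −8.61 points.

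A pair of these DMRs was called in both cell types at the same place. That of Tap2, which encodes the partner of TAP1 in the peptide transporter, lay in its 3′ flank (chr17:34218511-34219285), with 86.0% in WT and 56.8% in mutant CD11b+ cells and 67.1% and 37.3% in CD4+ cells. It was the DMR nearest to the bodies of Tap1, at 21.3 kb, Psmb8, at 17.1 kb, H2-Ab1, at 38.4 kb, and H2-Aa, at 63.5 kb. That of Irf8, which encodes an interferon regulatory factor needed for monocytes and dendritic cells, lay in its 5′ flank (chr8:120731699-120732271 in CD11b+ cells), with 92.2% and 60.2%, and with 91.7% and 69.6% in CD4+ cells (chr8:120731526-120732271).

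The other DMRs of the list given here were called in 1 cell type, and no test compared the cell types. In CD11b+ cells one lay between H2-DMa and H2-DMb2, which encode the chains of the molecule that loads peptides on class II (chr17:34139103-34139783, 84.8% in WT and 52.1% in the mutant). In CD4+ cells they lay in an intron of Irf2, another interferon regulatory factor (chr8:46742658-46743274, 62.0% and 22.9%), before Psme1, which encodes a subunit of a proteasome activator (chr14:55576395-55576806, 72.5% and 37.0%), in an intron of Cd86, which encodes a costimulatory ligand (chr16:36632091-36632437, 82.1% and 50.6%), and over an exon of Creb1, which encodes a factor of the class II promoters (chr1:64601328-64601908, 87.7% and 58.6%). Of the regulators that act with CIITA, Rfx5, Rfxap, Rfxank, Nfya, Nfyb and Nfyc had no DMR in either cell type, and neither had Nlrc5, the class I counterpart of Ciita.

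Along the 1.27 Mb from H2-K1 to H2-D1, 5 of 393 listed regions were hypomethylated DMRs in CD11b+ cells (1.27%) and 8 of 524 in CD4+ cells (1.53%), and none was hypermethylated. Over all listed regions the shares were 0.576% and 0.665%. The DMRs lay in or near Notch4, Tap2 and other genes of the segment, and 3 places were called in both cell types. The median difference over the segment was −8.27 points in CD11b+ and −8.65 in CD4+ cells, against −6.55 and −6.85 over all listed regions. For the 3 members outside this segment the nearest DMRs of CD4+ cells were 67.5 kb from Cd74, 209 kb from Ciita and 80.7 kb from B2m.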

How the data were processed

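WGBS of splenic CD11b+ and CD4+ cells of WT and Dnmt3a R878H/+ mice was analysed from 2 deposited tables, one per cell type. The authors used BISCUIT for mapping (mm10) and metilene on CpG methylation ratios, which cuts the genome into regions and compares the genotypes in each. The DMR criteria are those of the study's methods, which also state a sequencing coverage for the libraries as a whole. Tool versions, other settings and a coverage minimum per site are not given in the sources used here. FastQC is named in the submitters' processing notes. The deposited values are the authors' mean methylation per genotype in percent and the q-value of the region caller, beside a p-value for each of 2 tests, which were not used here. The number of CpGs per region was used as deposited. The tables have 0 columns of single-sample values and no depth, so the precision of each value is unknown.

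Regions were taken within 5 kb of a gene body (GENCODE release 21, mm10, coordinates counted from 1), and regions within 1 kb of the start of a basic protein-coding transcript were called near a start. Region ends lay on CpG cytosines of the mm10 sequence in 100% of 20000 regions sampled per table. Regions of both tables were matched by a reciprocal overlap of at least 50%. No p-value was computed. The rule named all 10 genes, their largest difference per cell type and their regions near a start, and further pathway genes with a DMR. A part of the rule, the genes nearest to Ciita, could not be applied, as Ciita had no matched region. Tried as alternatives were no q-value threshold or one of 0.01, a difference above 30 or 10 points, more than 20 CpGs, no extension or one of 10 kb, weighting by CpGs, and a reciprocal overlap of 80% or any overlap. Another count of CpGs was added after seeing the data. The genes, lists and tests were chosen with earlier results of these data known. The overlap, matching and calling steps were tested on simulated data. Tools were pandas 2.3.3 and numpy 2.4.6 in python 3.11.15, with matplotlib 3.10.9 for plots. A result that rests on an item withheld for evaluation is not reported here.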

Additional observations from a re-analysis of the deposited data

How the results depend on the processing

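The count of DMRs at the 10 genes stayed 0 in both cell types with an extension of 10 kb, which adds regions. It was also 0 under a q-value below 0.01, a difference above 30 or above 10 points, more than 20 CpGs or no extension. Requiring more than 10 CpG dinucleotides in a region's sequence, a setting added once values were known, gave 0 as well. Apart from the 10 kb extension, these settings could not have raised the count and do not test its stability. The lowest q-value of any region within 5 kb of the 10 genes was 0.32, above the threshold of 0.05. Without a q-value threshold the count was 4 in CD11b+ cells, 1 of them higher in the mutant, and 5 in CD4+ cells, all lower. For the further genes, the 4 DMRs of CD11b+ cells and 6 of CD4+ cells became 27 and 39 without a q-value threshold and 1 and 3 without extension, and by CpG dinucleotides those of CD4+ cells became 3. The median difference between genotypes at the 10 genes, −7.53 points in CD11b+ cells, was −6.86 as a mean weighted by CpGs, −9.15 without extension and −7.55 with 10 kb. Over the 2 regions with more than 20 CpGs it turned to 11.6, 1 of the 2 being exon 2 of H2-Ab1. In CD4+ cells, −9.90 became −11.0, −12.2 and −9.72 in this order, and −7.65 over 4 regions with more than 20 CpGs. The median difference of CD4+ minus CD11b+ cells, 1.70 in WT and 2.65 in the mutant, was 2.01 and 3.29 with any overlap (36 pairs), 7.91 and 7.91 with a reciprocal overlap of 80% (4 pairs), and 6.65 and 7.85 without extension (9 pairs). No paired analysis was possible because the tables hold group means only, and for the same reason no replicate could be left out. Read depth is not in the tables, so no coverage minimum was tried.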
